A study of Mus musculus with 24 samples.

Results

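Activated splenic B cells of miR-155 knockout (KO) mice were compared with the same cells of wild-type (WT) mice, with 3 libraries in each group. The libraries were chosen by their titles, which give the cell type and the genotype. They make up 6 of the 24 libraries of a series. The other libraries come from activated CD4 T cells, LPS-treated peritoneal macrophages and LPS-treated dendritic cells of both genotypes. The KO group was B cells of mice labelled miR-155 KO, and the WT group was B cells of wild-type mice. Both were on the C57BL/6J background, and their B cells were taken from spleen by removing CD43-positive cells and were then cultured in RPMI with serum, with LPS at 25 ug/ml together with IL-4 at 6.5 ng/ml. The time in culture, the age of the mice and the kind of deletion are not given in the labels, and both groups carried the stimulus, so no value here describes a resting B cell. The 3 libraries of each group are described by the submitters as sequencing replicates, and separate mice are not mentioned. The p-values below therefore cover only the spread between these libraries, and that spread may be technical.

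miR-155 is a microRNA that is made in quantity when lymphocytes and myeloid cells are activated. A microRNA guides an Argonaute protein to messenger RNAs whose 3′ UTR pairs with its seed, and the bound messenger is translated less and degraded, so that loss of the microRNA is expected to raise direct targets and to change other genes indirectly. In B cells miR-155 is known for its part in germinal centre and class-switched antibody responses, and LPS with IL-4 is a common way to drive class switching in culture. Reported targets in B cells include Jarid2 and the transcription factor gene Spi1 (PU.1).

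The sequences below show the mature microRNA, with its seed (bases 2 to 8) in capitals, and 30-base windows of 3′ UTRs with the paired site in capitals. They were picked to set 8mers in genes that rose (Bach1, Jarid2, Nfe2l2, Spi1) beside 8mers in a gene that was not called (Socs1) and a gene that fell (Hdac9). Gsr, which also rose, is shown with a 7mer-A1, and no site of that type in another gene is set beside it.
miR-155-5p: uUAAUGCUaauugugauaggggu
Bach1 8mer: tttctctctatgaacagtttAGCATTAAgg
Jarid2 8mer, upstream: tagagaactgattttgttttAGCATTAAac
Jarid2 8mer, downstream: ctgcttgtgtccctcacatcAGCATTAAtc
Nfe2l2 8mer: aataatatgaaactttacaaAGCATTAAag
Spi1 8mer: tcctggaccccgccggccatAGCATTAAcc
Gsr 7mer-A1: gttattttcatggaacaaagtGCATTAAag
Socs1 8mer: ccggctgccgctgtgccgcAGCATTAAgtg
Hdac9 8mer: atttaaaaaatacatatgaaAGCATTAAtc

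All of these are written 5′ to 3′ on the strand of the transcript. The microRNA is from RefSeq (GRCm38.p6) and lies at chr16:84714143-84714165 on the plus strand. The windows are from the longest 3′ UTR that GENCODE M21 (GRCm38) gives for each gene. They lie at chr16:87732168-87732197 (plus strand) in Bach1, chr13:44920073-44920102 (plus strand) and chr13:44920846-44920875 (plus strand) in Jarid2, chr2:75675804-75675833 (minus strand) in Nfe2l2, chr2:91115417-91115446 (plus strand) in Spi1, chr8:33697916-33697945 (plus strand) in Gsr, chr16:10784203-10784232 (minus strand) in Socs1 and chr12:34049816-34049845 (minus strand) in Hdac9. On the transcript strand, 4 site types were searched. AGCATTAA is the 8mer and GCATTA the 6mer, while AGCATTA makes a 7mer-m8 and GCATTAA a 7mer-A1. An 8mer holds every shorter type, and each gene was placed by the longest type it has. A gene with an 8mer or either 7mer is called seed-matched below. A match is a description of the sequence and does not show binding.

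The libraries held 9152770 to 11473588 reads counted in genes, and 10151 of the 20673 genes in the files passed the filter on low counts and were tested. Expression is given as CPM, the count of a gene scaled to a fixed library total, with TMM factors of 0.995 to 1.01. B cell markers were high in each library: Cd79a, a chain of the B cell receptor complex, had 455, 544 and 537 CPM in the KO libraries, against 466, 517 and 567 CPM in the WT libraries. Ms4a1, which encodes CD20, had 582, 587 and 518 CPM in the KO libraries, against 628, 593 and 667 CPM in the WT libraries. The groups overlapped for Cd79a, while the KO libraries lay below the WT libraries for Ms4a1 without passing the test (adjusted p = 0.16). The 10 B cell markers summed to 4608 ± 210 CPM in KO and 4798 ± 196 CPM in WT libraries (SD, n = 3 each, exact permutation p = 0.4, smallest possible p 0.1). The 12 T cell markers summed to 18.4 to 23.5 CPM in KO and 15.8 to 21.7 CPM in WT libraries, mostly from Thy1 (15.6, 14.9 and 17.96 CPM in KO and 16.9, 19.5 and 11.7 CPM in WT), while Cd3g and Trat1 were at 0. The 11 macrophage and monocyte markers summed to 12.1 to 17.3 CPM in KO and 12.4 to 18.6 CPM in WT libraries, mostly from Adgre1 and Cd68, with C1qb and C1qc at 0. The 9 dendritic cell markers summed to 44.7, 46.9 and 54.8 CPM in KO and 42.2, 39.999 and 55.5 CPM in WT libraries, mostly from Flt3, with Clec9a and Siglech at 0. These 3 sums overlapped between groups. Of 14 marker lists, 3 gave sums that did not overlap between groups. Among single genes, 2235 of the 10151 tested did not overlap. The 8 B-1 cell markers summed to 362, 396 and 454 CPM in KO libraries and 481, 488 and 573 CPM in WT libraries (exact permutation p = 0.1, 0.467 adjusted over the 14 lists). Most of that sum was Zbtb32 (adjusted p = 0.085), Spn was the single member called, and Cd5 was under 1 CPM in each library. Neutrophil markers summed to 1.12 to 1.49 CPM in KO and 0.754 to 1.09 CPM in WT libraries, with 7 of 10 at 0, and the mast cell and basophil list was at 0 apart from Kit, at 0.347 to 0.934 CPM in KO and 0.183 to 0.326 CPM in WT libraries. Their part in the results below was not tested. KO replicate 3 stood apart in erythroid markers, which summed to 25.1 CPM there, against 0.431 to 7.72 CPM in the other libraries, mostly from Alas2 (19.0 CPM), while the globin genes were at 0 in each library. The first principal component (37.9% of the variance) separated KO from WT libraries, and the second (23.2%) set replicate 3 of both groups apart from the others. No symbol in the files stands for miR-155 or its host transcript, and the deletion itself was therefore not checked here.

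Most changes in the messenger RNA of activated KO B cells were small, and 212 genes rose while 113 fell. Of 10151 genes, 325 (3.2%) passed an adjusted p under 0.05 by edgeR's quasi-likelihood test with Benjamini-Hochberg adjustment, and such genes are called below. The genes higher in KO were 2.09% of those tested and the genes lower in KO 1.11%. They had a median absolute log2 fold change of 0.49 among the genes that rose and 0.36 among those that fell. In bulk RNA, fewer cells of a type and less RNA per cell cannot be told apart. At least a doubling was seen in 29 of the genes that rose and at least a halving in 6 of those that fell. KO and WT libraries did not overlap in 2235 of the 10151 tested genes, which include all 325 called genes. A lack of overlap therefore adds nothing to a call. The number of calls fell to 141 without WT replicate 1, 150 without WT replicate 2 and 156 without KO replicate 2, and 105 genes were called in the same direction whichever library was left out. A fit of all 24 libraries, which shares 1 estimate of spread between cell types, called 81 B cell genes. Of the 112 called genes chosen by the naming rules given under data processing, 70 were not called in that fit.

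Of 1408 seed-matched genes 101 rose (7.17%), beside 2.09% of all tested genes, and 9 fell (0.639%), beside 1.11%. Their median log2 fold change was 0.05, against 100 up and 92 down and a median of -0.01 among 7918 genes with no site. Seed-matched genes were 47.6% of the genes that rose, 8.0% of those that fell and 13.9% of all tested genes. Leaving out a library gave the lowest counts for WT replicate 1 (53 seed-matched genes up, 5 down), WT replicate 2 (54 up, 6 down) and KO replicate 2 (56 up, 4 down).

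The share that rose is given by site type. Among 334 genes with an 8mer, 50 (14.97%) rose and 3 fell, with a median log2 fold change of 0.09. For the 7mer-m8, 31 of 605 rose (5.12%), and for the 7mer-A1, 20 of 469 rose (4.26%). Genes with only the 6mer rose in 10 of 766 cases (1.31%) and fell in 11, close to the 1.26% that rose among genes without a site. With 1 seed match 70 of 1187 genes rose (5.90%), with 2 matches 26 of 177 (14.7%), and with 3 or more 5 of 44. Differences between site types were not tested. The 281 genes with an 8mer that were not called include Socs1 and other reported targets given below.

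**Figure D1:**
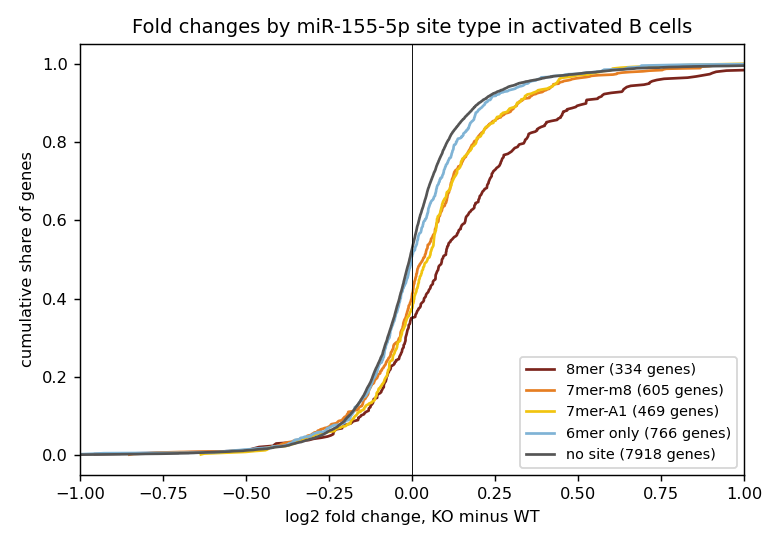
Cumulative share of genes (vertical axis) by log2 fold change, KO minus WT (horizontal axis), for genes grouped by their longest miR-155-5p site, with changes beyond 1 in size outside the axis. The 8mer curve lies to the right of the others, with a median of 0.09 for 334 genes, while the 6mer curve runs beside that of 7918 genes with no site.

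The 3 KO libraries did not show the same difference between seed-matched genes and genes with no site. Against the mean of the WT libraries, the median log2 difference of seed-matched genes minus that of genes with no site was 0.12 in KO replicate 1, 0.05 in KO replicate 2 and -0.01 in KO replicate 3. Libraries of the same genotype differed by up to 0.13 in this measure (KO replicate 1 against KO replicate 3). The length of the 3′ UTR moved with it. Seed-matched genes had a median 3′ UTR of 2552.5 bases, against 928.5 bases for genes with no site, and among genes with no site the median of those with a longer 3′ UTR minus that of those with a shorter one was 0.04 in KO replicate 1, -0.02 in KO replicate 2 and -0.10 in KO replicate 3.

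Against genes with no site matched on 3′ UTR length (median 2551.5 bases), the excess was 0.09, 0.06 and 0.06 in KO replicates 1, 2 and 3. All 9 pairs of a KO and a WT library then gave 0.06 to 0.10, while pairs within a genotype gave -0.01 to 0.05. Of the 1408 matched genes with no site, 17 rose and 14 fell, against 101 and 9 of the seed-matched genes. The 8mer genes alone exceeded all genes with no site, not matched on length, by 0.16, 0.10 and 0.05 in KO replicates 1, 2 and 3. Libraries of the same genotype differed by up to 0.12 in that measure (KO replicate 1 against KO replicate 3).

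**Figure D2:**
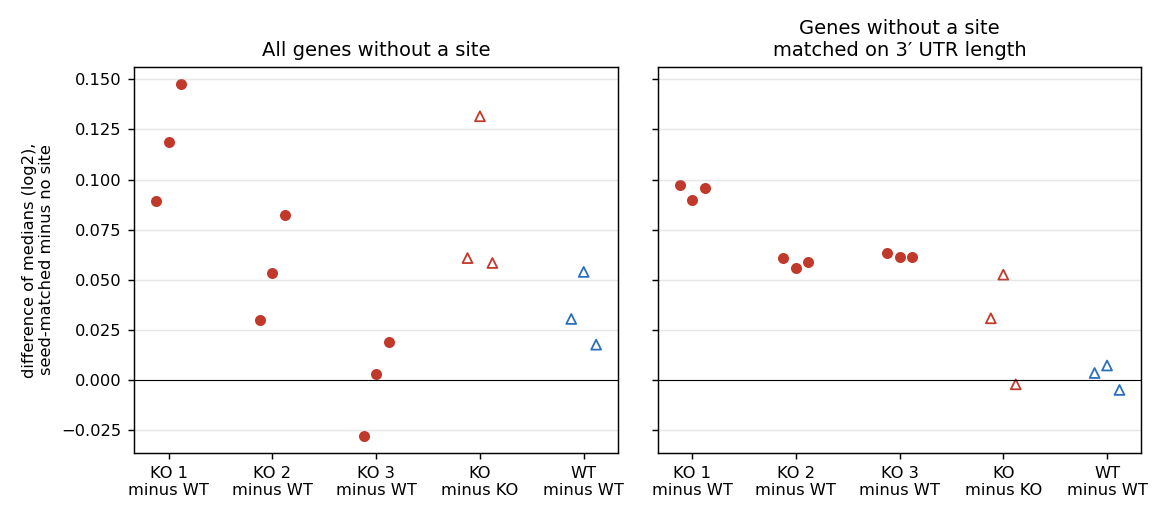
Each point is 1 pair of libraries, and the vertical axis gives the median log2 difference of seed-matched genes minus that of genes without a site, against all such genes (left) or against ones matched on 3′ UTR length (right). Filled circles are a KO library minus each of the 3 WT libraries, and open triangles are pairs within KO or within WT. The KO minus WT pairs range from -0.03 to 0.15 on the left and from 0.06 to 0.10 on the right.

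Reported targets carried the largest share of increases of any list examined. The list held 47 genes named in earlier work on miR-155 in any cell type, of which 39 were tested, and 19 rose and none fell (with 2.09% of all tested genes higher and 1.11% lower), with a median log2 fold change of 0.32. Between 13 and 20 rose when 1 library was left out. DESeq2 called 17 up and 0 down, and 24 rose and 2 fell at an unadjusted p under 0.05. The list was drawn up with earlier results of these data known, so its count describes these genes and is no independent evidence of their direction. Over all tested genes, for comparison with this list and those below, DESeq2 called 1.54% up and 0.928% down, and 8.91% rose and 7.55% fell at an unadjusted p under 0.05 by edgeR.

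Bach1 and Jarid2 were among the targets that rose most. Bach1 encodes a repressor of antioxidant and heme-handling genes, and it had 24.6, 21.8 and 22.04 CPM in the KO libraries, against 10.8, 10.6 and 11.3 CPM in the WT libraries (log2 fold change 1.07, SE 0.10, adjusted p = 1.2e-05). Its 3′ UTR holds an 8mer and a 7mer-m8. Jarid2, an accessory protein that helps to place Polycomb repressive complex 2 on chromatin, has 2 8mers and had 121, 119.6 and 124 CPM in the KO libraries, against 64.3, 64.7 and 65.8 CPM in the WT libraries (log2 fold change 0.90, SE 0.06, adjusted p = 1.3e-07). In both genes the groups were well separated and the spread within a group was small beside the difference.

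Picalm, a clathrin adaptor that shapes endocytic vesicles, was among the more abundant targets. It had 216, 221 and 204 CPM in the KO libraries, against 117, 118 and 110.3 CPM in the WT libraries (log2 fold change 0.89, SE 0.06, adjusted p = 1.2e-07) and carries 3 seed matches, none of them an 8mer. Spi1, whose product PU.1 is a lineage factor of B and myeloid cells that also represses plasma cell differentiation, had 86.8, 92.7 and 97.02 CPM in the KO libraries, against 62.7, 57.9 and 65.4 CPM in the WT libraries (log2 fold change 0.57, SE 0.07, adjusted p = 0.00015). Rheb, the small GTPase that activates mTOR complex 1, rose by 0.82 on the log2 scale. Csnk1g2, a casein kinase, rose by 0.63, and Tab2, an adaptor that links receptor signals to the kinase TAK1, by 0.52. As in every called gene, KO and WT libraries did not overlap in any of these genes, and all were called with each library left out.

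Other reported targets also rose. Zfp652, a zinc finger repressor, rose by 0.87, Sdcbp (syntenin) by 0.53, Smad5, a transducer of BMP signals, by 0.49 and the ubiquitin ligase gene Peli1 by 0.42. Wee1, the kinase that holds back entry into mitosis, rose by 0.40 and Hif1a, the oxygen-regulated transcription factor, by 0.35. Inpp5d encodes SHIP1, the phosphatase that removes the PI3 kinase product. It is a target often cited in immune cells and had 409, 424 and 397 CPM in the KO libraries, against 364, 358 and 343 CPM in the WT libraries, a log2 fold change of 0.21 with SE 0.05 (adjusted p = 0.03). Cebpb, a transcription factor of inflammatory genes, was low, with 6.24, 6.26 and 9.69 CPM in the KO libraries, against 2.72, 4.59 and 3.99 CPM in the WT libraries (log2 fold change 0.95, SE 0.22, adjusted p = 0.033).

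Some of these calls were easily lost. Inpp5d, Cebpb, Rps6ka3 and Rcor1 were each not called in 5 of the 6 fits that left a library out, Arntl in 3 and Tle4 in 2. The highest adjusted p was 0.14 without KO replicate 2 for Inpp5d, 0.16 without WT replicate 1 for Cebpb, 0.1 without KO replicate 2 for Rps6ka3, 0.16 without WT replicate 2 for Rcor1, 0.088 without WT replicate 1 for Arntl and 0.066 without WT replicate 2 for Tle4. With every library, these last genes rose by 0.42 (Rps6ka3, the kinase RSK2), 0.45 (Rcor1, a corepressor subunit), 0.43 (Arntl, the clock activator BMAL1) and 0.34 (Tle4, a Groucho-family corepressor).

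The 20 tested targets that were not called include several with an 8mer. Socs1, an inhibitor of cytokine receptor signalling with an 8mer shown above, had 37.4, 52.6 and 50.1 CPM in the KO libraries, against 50.5, 51.6 and 44.4 CPM in the WT libraries (log2 fold change -0.07, SE 0.12, adjusted p = 0.84). Its KO libraries spanned the range of the WT libraries. Cd47, Ets1, Arid2, Trp53inp1 and Pmaip1 also carry an 8mer and gave log2 fold changes of 0.01, -0.12, 0.23, 0.24 and 0.60. Pmaip1, which encodes the pro-death protein NOXA, came closest (adjusted p = 0.056). The mismatch repair gene Msh6, reported as a target in human cells, gave 0.01 with an SE of 0.05. Rictor, Ripk1 and Ikbke gave -0.07, -0.02 and 0.12. None of these values passed the test, which does not show that the genes were unchanged.

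**Figure D3:**
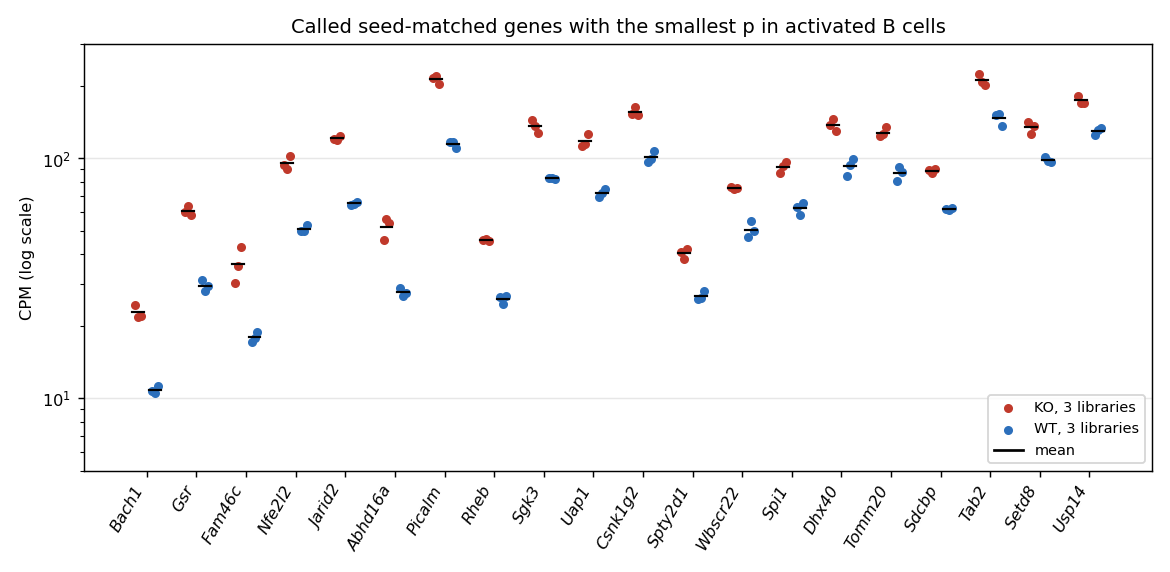
CPM on a log scale in each library for 20 called seed-matched genes (those of smallest p among the genes reported here), ordered by fold change. Red points (left of each pair) are the 3 KO libraries, blue points (right) the 3 WT libraries, and black lines the means. In every gene shown the 3 KO libraries lie above the 3 WT libraries, from Bach1 at a log2 fold change of 1.07 to Usp14 at 0.42.

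Called seed-matched genes outside the list of reported targets had varied roles. Sgk3, a kinase that acts below PI3 kinase, had 145, 137 and 128 CPM in the KO libraries, against 82.6, 83.2 and 82.2 CPM in the WT libraries (log2 fold change 0.72, SE 0.06, adjusted p = 3.1e-06). Uap1, which makes the UDP-GlcNAc that feeds protein glycosylation, had 113, 115 and 127 CPM in the KO libraries, against 69.05, 71.7 and 74.7 CPM in the WT libraries (log2 fold change 0.72, SE 0.07, adjusted p = 6.6e-06). Neither gene's groups overlapped. Fam46c, a poly(A) polymerase that stabilises messenger RNAs and is active in plasma cells, had 30.3, 35.6 and 42.7 CPM in the KO libraries, against 17.2, 17.9 and 18.96 CPM in the WT libraries (log2 fold change 1.0, SE 0.12, adjusted p = 0.00018). Within KO its level was highest in replicate 3. Abhd16a, a lipid hydrolase, rose by 0.90 on the log2 scale. Wbscr22, a ribosomal RNA methyltransferase, rose by 0.57, Dhx40, a helicase, by 0.57, and Tomm20, the import receptor of mitochondria, by 0.56. Setd8, a histone H4 methyltransferase, and Usp14, a deubiquitinase of the proteasome, rose by 0.45 and 0.42. Spty2d1, a histone chaperone, rose by 0.60. All were called with each library left out.

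Genes with an 8mer that fell were few, and are named here after their values were seen. Hdac9, a class IIa histone deacetylase whose 8mer is shown above, had 18.2, 15.6 and 14.8 CPM in the KO libraries, against 26.2, 24.5 and 23.5 CPM in the WT libraries (log2 fold change -0.61, SE 0.10, adjusted p = 0.003). Gpr15, a chemoattractant receptor, had 22.7, 26.98 and 26.4 CPM in the KO libraries, against 29.2, 34.9 and 36.7 CPM in the WT libraries (log2 fold change -0.41, SE 0.10, adjusted p = 0.036), and Hp1bp3, a chromatin protein, had 123, 133 and 128 CPM in the KO libraries, against 151, 154 and 147 CPM in the WT libraries (log2 fold change -0.23, SE 0.06, adjusted p = 0.03). The 3 KO libraries lay below the 3 WT libraries for all of them. Hdac9 kept its call with each library left out, while the highest adjusted p was 0.15 without WT replicate 2 for Gpr15 and 0.15 without WT replicate 2 for Hp1bp3. In the fit of all 24 libraries none of them was called (adjusted p = 0.58 for Hdac9, 0.75 for Gpr15 and 0.19 for Hp1bp3).

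Several genes of the NRF2 and BACH1 system rose. NRF2 (Nfe2l2) activates antioxidant and iron-storage genes and BACH1 represses many of the same genes, and both genes carry an 8mer. Of 33 genes listed, 28 were tested and 6 rose (21.4%, beside 2.09% of all tested genes), with a median log2 fold change of 0.18, and 6 or 7 rose with each library left out. At an unadjusted p under 0.05, 17 of the 28 were higher and 0 lower (8.91% and 7.55% of all tested genes), and DESeq2 called 6 and 0. Nfe2l2 had 94.3, 90.6 and 102 CPM in the KO libraries, against 49.7, 49.6 and 52.7 CPM in the WT libraries (log2 fold change 0.92, SE 0.07, adjusted p = 6.2e-07). Gsr, glutathione reductase, has a 7mer-A1 and had 60.1, 63.4 and 58.3 CPM in the KO libraries, against 31.2, 27.98 and 29.3 CPM in the WT libraries (log2 fold change 1.04, SE 0.08, adjusted p = 5.9e-07). In both genes the KO libraries lay close together and far above the WT libraries.

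The remaining called genes of that system have no seed match. Txnrd1, thioredoxin reductase, had 268, 257 and 249 CPM in the KO libraries, against 191, 195 and 168 CPM in the WT libraries (log2 fold change 0.48, SE 0.06, adjusted p = 0.00027). The ferritin subunits store iron, and Fth1 had 904, 904 and 948 CPM in the KO libraries, against 635, 733 and 719.7 CPM in the WT libraries (log2 fold change 0.40, SE 0.06, adjusted p = 0.00062), while Ftl1 had 498, 579 and 612 CPM in the KO libraries, against 368, 429.6 and 389 CPM in the WT libraries (log2 fold change 0.51, SE 0.08, adjusted p = 0.0044). The ferritin genes have near-identical processed copies in the genome, so their counts are uncertain to the extent that reads could be split or dropped. Neither ferritin gene was called in the fit of all 24 libraries (adjusted p = 0.64 for Fth1 and 0.55 for Ftl1).

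In several pathways the called genes were few and mostly seed-matched. Of 13 tested genes of Polycomb repressive complex 2, Jarid2 alone was called (7.69% up, beside 2.09% of all tested genes). The core subunits Ezh2, Eed and Suz12 gave -0.04, 0.06 and -0.09, and none of these was called. Of 25 tested genes of clathrin-mediated endocytosis, Picalm and Itsn1 rose (8.0%), Itsn1 by 0.41 (with adjusted p = 0.087 without KO replicate 2). In the PI3 kinase and mTOR list 3 of 30 rose (10.0%), namely Sgk3, Rheb and Inpp5d. Of 11 tested hexosamine pathway genes, Uap1 alone was called (9.09% up).

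Germinal centre genes included 3 of 19 that rose and 0 that fell by edgeR (2 and 0 by DESeq2, and 4 and 1 at an unadjusted p under 0.05 by edgeR). Over all tested genes the shares were 2.09% up and 1.11% down by edgeR, and 8.91% and 7.55% at the unadjusted p. Without KO replicate 1, WT replicate 1, WT replicate 2 or WT replicate 3 the number that rose was 1. Plxnb2, a semaphorin receptor of germinal centre B cells, had 89.6, 83.8 and 98.7 CPM in the KO libraries, against 69.2, 66.1 and 69.4 CPM in the WT libraries (log2 fold change 0.41, SE 0.07, adjusted p = 0.0031). Myc, the growth regulator, had 226, 209.7 and 246 CPM in the KO libraries, against 201, 188 and 189.5 CPM in the WT libraries and rose by 0.24. Nuggc, a nuclear GTPase of germinal centre B cells, was near the detection limit in WT, with 1.21, 1.68 and 1.22 CPM in the KO libraries, against 0.326, 0.459 and 0.646 CPM in the WT libraries (log2 fold change 1.5, SE 0.39, adjusted p = 0.049). It passed the filter on low counts only through its KO libraries, where it is high. Its place among the genes that rose is therefore no support for a rise in this list. DESeq2 did not call Nuggc (adjusted p = 0.28). Myc and Nuggc were not called in 5 of the 6 fits that left a library out, with adjusted p up to 0.2 and 0.2. Bcl6, the master regulator of the germinal centre, overlapped between groups at 0.19 (adjusted p = 0.74).

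Among 31 genes of class switch repair, Xrcc5 alone was called and fell (3.23%, beside 1.11% of all tested genes that fell and 3.2% called in either direction). Xrcc5 encodes Ku80, which joins broken DNA ends, and had 51.7, 53.1 and 51.8 CPM in the KO libraries, against 60.8, 61.6 and 67.7 CPM in the WT libraries (log2 fold change -0.28, SE 0.07, adjusted p = 0.039). It was not called in 5 of the 6 fits that left a library out, with adjusted p up to 0.14 without WT replicate 3, nor by DESeq2 (adjusted p = 0.072). The repair genes Ung, Prkdc and Trp53bp1 gave 0.11, -0.07 and -0.13 and were not called. The median of the list was -0.02, beside -0.0024 for all tested genes.

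The plasma cell and secretory genes had a median log2 fold change of 0.24, and 2 of 21 tested members rose (9.52%, beside 2.09% of all tested genes). Edem1, which sends misfolded glycoproteins for degradation, had 211, 203 and 227 CPM in the KO libraries, against 179, 166 and 185 CPM in the WT libraries (log2 fold change 0.28, SE 0.06, adjusted p = 0.018), and Creld2, a stress protein of the endoplasmic reticulum, had 137, 143 and 168 CPM in the KO libraries, against 115, 117 and 129.9 CPM in the WT libraries (log2 fold change 0.31, SE 0.08, adjusted p = 0.045). Prdm1 (Blimp-1), the regulator of plasma cell fate, had 27.6, 31.1 and 42.9 CPM in the KO libraries, against 13.6, 17.6 and 23.8 CPM in the WT libraries and was not called (adjusted p = 0.13). Fkbp11 and Jchain also lay higher in each KO library without passing, at 1.03 and 0.69. KO replicate 3 had the highest level of Prdm1, Fkbp11 and Jchain. The list's median was 0.17 to 0.28 with each library left out, and the number of called members that rose was 0 to 5. At an unadjusted p under 0.05, 15 of the 21 were higher and 1 was lower, beside 8.91% and 7.55% of all tested genes. The sum of 9 plasma cell markers was 810 ± 71.7 CPM in KO and 718 ± 40.6 CPM in WT libraries (SD, n = 3 each, exact permutation p = 0.2), with KO replicate 3 highest at 886 CPM. The highest adjusted p was 0.14 without WT replicate 2 for Edem1 and 0.21 without WT replicate 1 for Creld2.

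B cell identity and receptor genes had calls in both directions. Of 24 tested identity factors, Spi1 rose and its relative Spib fell (8.33% called, beside 3.2% of all tested genes). At an unadjusted p under 0.05, 2 were higher and 7 lower, beside 8.91% and 7.55% of all tested genes. Spib had 103, 110.2 and 98.5 CPM in the KO libraries, against 131, 117 and 121 CPM in the WT libraries and was not called in any of the 6 fits that left a library out, with adjusted p up to 0.24. Pax5, Ebf1 and Bach2 gave -0.14, -0.15 and -0.10, none of them called. Of 38 receptor complex and signalling genes, Blk fell and Prkcd rose (5.26% called), and at an unadjusted p under 0.05, 2 were higher and 7 lower. Blk, a Src-family kinase of B cells, had 59.1, 67.3 and 55.5 CPM in the KO libraries, against 77.9, 82.7 and 79.8 CPM in the WT libraries (log2 fold change -0.40, SE 0.07, adjusted p = 0.006), with adjusted p = 0.05 without WT replicate 2. Prkcd, a kinase that restrains B cell activation, rose by 0.20, with adjusted p = 0.14 without WT replicate 2.

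Among 19 tested chemokine genes Ccl22 alone was called (5.26% up, beside 2.09% of all tested genes). It is a ligand of CCR4 that activated B cells and dendritic cells use to attract T cells. It has no seed match and had 64.05, 61.5 and 70.2 CPM in the KO libraries, against 32.7, 26.4 and 25.1 CPM in the WT libraries (log2 fold change 1.22, SE 0.09, adjusted p = 1.2e-06), with no overlap between groups. It is also a gene of the interleukin 4 list, in which it was the single call among 19 (5.26%). The Toll-like receptor list had 2 of 48 up (4.17%), Tab2 and Peli1, both seed-matched. Neither edgeR nor DESeq2 called any of 24 JAK, STAT and SOCS genes, of 23 p53 genes, of 33 sterol and fatty acid genes or of 24 microRNA pathway genes. At an unadjusted p under 0.05 by edgeR, 2 rose and 5 fell in the JAK, STAT and SOCS list, 2 and 1 in the p53 list, 0 and 1 in the sterol list, and 0 and 0 in the microRNA list, beside 8.91% and 7.55% of all tested genes.

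Cytokine receptors changed in both directions. Of 32 tested genes, Il6ra (log2 fold change 0.87), Il9r (0.60) and Ebi3 (0.47) rose and Il2rb fell. These are 9.4% up and 3.1% down, beside 2.09% and 1.11% of all tested genes. Il6ra, the interleukin 6 receptor, has 2 seed matches and had 17.1, 15.5 and 13.8 CPM in the KO libraries, against 10.00, 6.05 and 9.70 CPM in the WT libraries. Il2rb, a shared chain of the interleukin 2 and 15 receptors, had 1.04, 1.31 and 2.96 CPM in the KO libraries, against 5.87, 4.77 and 5.06 CPM in the WT libraries (log2 fold change -1.59, SE 0.29, adjusted p = 0.0065). Ebi3, a subunit of the cytokines IL-27 and IL-35, had 75.1, 79.6 and 95.5 CPM in the KO libraries, against 58.3, 60.3 and 61.7 CPM in the WT libraries. The highest adjusted p was 0.052 without KO replicate 2 for Il6ra, 0.053 without KO replicate 2 for Il2rb and 0.074 without WT replicate 1 for Il9r. In the TNF superfamily 1 of 17 rose and 2 fell (5.88% and 11.8%). Tnfrsf13c, the receptor for the survival factor BAFF, had 73.3, 71.1 and 79.3 CPM in the KO libraries, against 92.9, 90.4 and 102 CPM in the WT libraries (log2 fold change -0.35, SE 0.07, adjusted p = 0.0081, with adjusted p = 0.068 without KO replicate 2). Lta (lymphotoxin) fell by 0.76 and Cd40 rose by 0.22, with adjusted p = 0.11 without WT replicate 2 and 0.2 without WT replicate 2.

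Called genes of the BCL2 family and of the sensor list included several without a seed match. In the BCL2 family 2 of 17 rose (11.8%), and in the sensor list 1 of 17 rose and 2 fell (5.88% and 11.8%). Of all tested genes, 2.09% rose and 1.11% fell. Bcl2a1b, a survival protein, had 249, 251 and 249 CPM in the KO libraries, against 161, 163 and 169.9 CPM in the WT libraries (log2 fold change 0.60, SE 0.05, adjusted p = 3e-06), and Bcl2a1d had 107, 117 and 118 CPM in the KO libraries, against 74.4, 76.97 and 85.2 CPM in the WT libraries (log2 fold change 0.53, SE 0.07, adjusted p = 0.00024). These genes are near-identical copies, so reads may be shared between them. Pydc3, a PYHIN family gene, fell furthest of the genes named here. It had 1.21, 1.21 and 1.02 CPM in the KO libraries, against 11.5, 14.3 and 18.7 CPM in the WT libraries (log2 fold change -3.67, SE 0.23, adjusted p = 1.3e-07), and it too belongs to a cluster of close copies. Nlrc3, an attenuator of innate signalling, fell by 0.70 (with adjusted p = 0.08 without WT replicate 2), and Casp1, the inflammasome protease, rose by 0.33 (with adjusted p = 0.12 without WT replicate 2). Of 38 interferon response genes only Ddx58, the RNA sensor RIG-I, was called (2.63% down, beside 1.11% of all tested genes). It was lower by 0.31 on the log2 scale, with adjusted p = 0.12 without KO replicate 2.

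Lysosomal and lipid handling genes had 5 of 32 up and 0 down by edgeR (2 and 0 by DESeq2, and 9 and 1 at an unadjusted p under 0.05 by edgeR). Over all tested genes the shares were 2.09% and 1.11%, and 8.91% and 7.55% at the unadjusted p. Cd36, a fatty acid and lipoprotein receptor, had 105, 91.4 and 104 CPM in the KO libraries, against 52.8, 55.9 and 63.3 CPM in the WT libraries (log2 fold change 0.80, SE 0.08, adjusted p = 1.2e-05) and is the clearest of them. The others, Grn, Lamp1, Lamp2 and Ctsd, rose by 0.20 to 0.27 on the log2 scale, and 1 to 4 genes of the list rose with each library left out. Their highest adjusted p was 0.19, 0.21, 0.2 and 0.2. Prostanoid genes, of which 12 were tested, held Ptgir, the prostacyclin receptor, with 10.6, 11.5 and 11.2 CPM in the KO libraries, against 4.78, 5.14 and 4.09 CPM in the WT libraries (log2 fold change 1.24, SE 0.14, adjusted p = 0.00011). Tbxas1, thromboxane synthase, had 5.29, 6.91 and 7.04 CPM in the KO libraries, against 2.72, 3.12 and 2.91 CPM in the WT libraries (log2 fold change 1.12, SE 0.19, adjusted p = 0.0031), and Ptger1, a prostaglandin E2 receptor, fell by 0.43 (with adjusted p = 0.089 without WT replicate 2).

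Cell cycle and replication genes had 5 of 50 up and 1 down (10.0% and 2.0%, beside 2.09% and 1.11% of all tested genes). The 5 that rose are all seed-matched. Mcm2, a subunit of the replicative helicase, has an 8mer and had 535, 537 and 546 CPM in the KO libraries, against 439.8, 418 and 393 CPM in the WT libraries (log2 fold change 0.37, SE 0.05, adjusted p = 0.00055). Cdt1, which loads that helicase, rose by 0.42, Gins1 by 0.55, E2f2, an S phase transcription factor, by 0.38, and Wee1 as given above. With each library left out, 5 or 6 genes of the list rose. Ccnd3, a cyclin of lymphocyte proliferation, fell by 0.24, with adjusted p = 0.21 without WT replicate 1.

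Actin regulators were mixed, with 4 of 43 up and 2 down. Fmnl2, a formin, had 24.4, 22.9 and 23.6 CPM in the KO libraries, against 11.4, 12.7 and 6.46 CPM in the WT libraries (log2 fold change 1.2, SE 0.17, adjusted p = 0.0037), and WT replicate 3 lay lowest. Myo10, a motor of filopodia, has an 8mer and had 7.45, 6.82 and 6.63 CPM in the KO libraries, against 3.59, 2.48 and 3.88 CPM in the WT libraries (log2 fold change 1.09, SE 0.19, adjusted p = 0.0036). Inf2 and Daam1, also formins, rose by 0.29 and 0.62. The abundant genes Myh9 and Coro1a fell by 0.23 and 0.19. The highest adjusted p was 0.059 without WT replicate 1 for Daam1, 0.1 without WT replicate 1 for Myh9 and 0.15 without WT replicate 3 for Coro1a. Among adhesion genes Cd2 had 27.6, 33.7 and 33.4 CPM in the KO libraries, against 44.4, 50.9 and 53.7 CPM in the WT libraries (log2 fold change -0.66, SE 0.09, adjusted p = 0.0008) and Cdh17, a cadherin, had 9.79, 7.84 and 10.2 CPM in the KO libraries, against 17.7, 19.2 and 15.9 CPM in the WT libraries (log2 fold change -0.93, SE 0.13, adjusted p = 0.00049), both lower in KO. Alcam and Selplg rose by 0.51 and 0.32, with adjusted p = 0.094 without KO replicate 2 for Selplg.

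The remaining lists had few calls. Of 25 glycolysis and hypoxia genes, Hif1a, Vegfa and Slc16a1 rose and Hk1 fell. Slc16a1, a monocarboxylate transporter, was not called in 5 of the 6 fits that left a library out, with adjusted p up to 0.12. Hk1, a hexokinase, had 113, 112 and 121 CPM in the KO libraries, against 152, 140.0 and 154 CPM in the WT libraries (log2 fold change -0.36, SE 0.06, adjusted p = 0.0025). Vegfa, an angiogenic factor, rose by 0.57. Of 20 AP-1 and EGR family genes Egr1 and Myc rose (10.0%). Egr1, an immediate early transcription factor, rose by 0.57, with adjusted p = 0.053 without KO replicate 2. Of 15 clock genes Arntl and Nr1d2 rose (13.3%), Nr1d2 by 0.58, with adjusted p = 0.13 without KO replicate 2. Nr1d2 was not called in 5 of the 6 fits that left a library out, and 0 to 3 clock genes rose in those fits. DESeq2 called 0 clock genes (adjusted p = 0.057 for Arntl and 0.066 for Nr1d2). Of 18 SMAD genes Smad5 and Tgif1 rose (11.1%), Tgif1 by 0.35, with adjusted p = 0.12 without WT replicate 2. In the stress response list Cebpb, Vegfa and Slc38a2 rose among 29 (10.3%). Slc38a2, a glutamine transporter, rose by 0.32 (with adjusted p = 0.14 without WT replicate 2). Of 37 antigen presentation genes Cd40 and Lgmn rose (5.41%), Lgmn, a lysosomal protease, by 0.47 (with adjusted p = 0.15 without WT replicate 2).

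**Figure D4:**
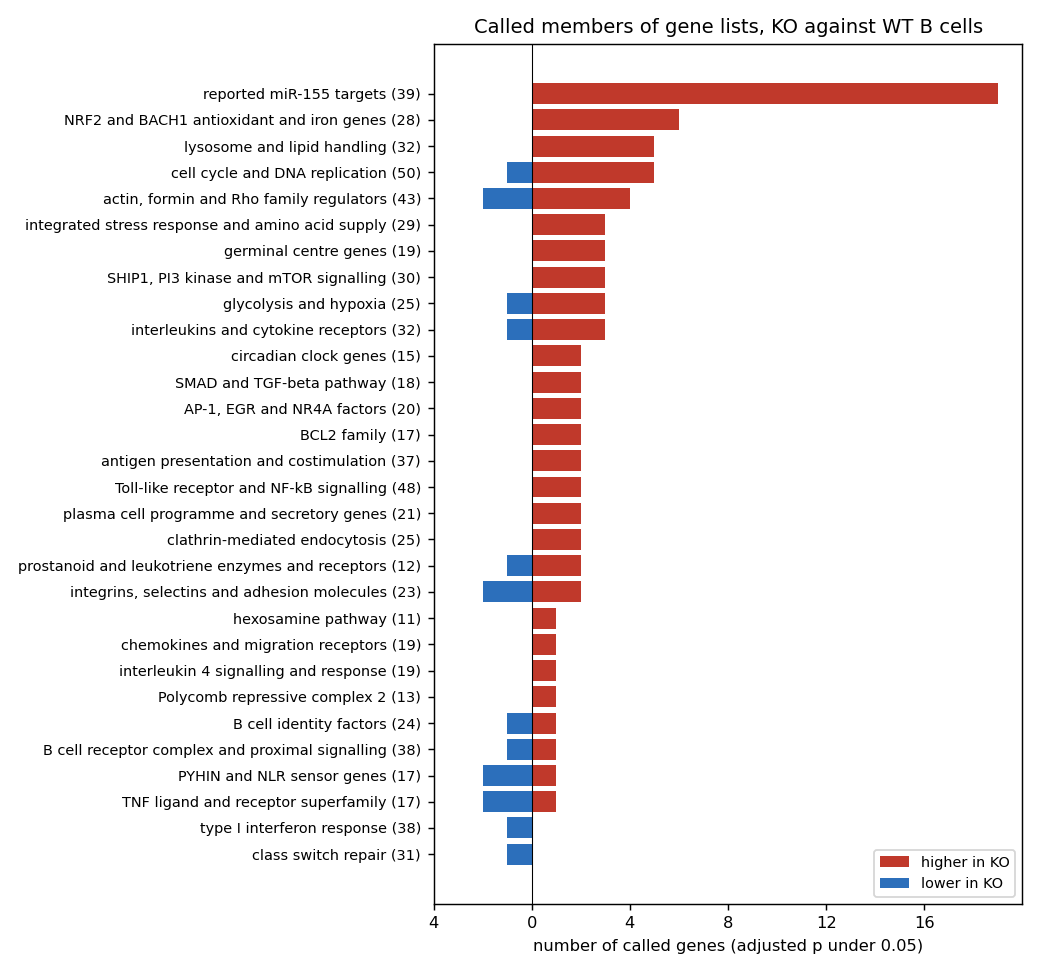
Number of called genes (adjusted p under 0.05) in each gene list, higher in KO to the right in red and lower in KO to the left in blue, with the number of tested members in brackets and a gene counted in each list that holds it. Reported targets lead with 19 of 39 up, followed by the NRF2 and BACH1 list with 6 of 28. The 4 lists without any call are not drawn.

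The largest increases were not led by seed-matched genes. Wdfy1, an endosomal adaptor of Toll-like receptor signalling, has no seed match and had 26.3, 27.4 and 27.9 CPM in the KO libraries, against 8.37, 8.44 and 8.94 CPM in the WT libraries (log2 fold change 1.66, SE 0.10, adjusted p = 1.2e-07). Lad1, an anchoring filament protein, had 180.3, 179 and 177 CPM in the KO libraries, against 92.5, 75.04 and 77.7 CPM in the WT libraries (log2 fold change 1.13, SE 0.07, adjusted p = 1.2e-07). The neighbouring membrane protein genes Tmem176a and Tmem176b had 49.7, 54.1 and 43.7 CPM in the KO libraries, against 25.1, 24.4 and 21.9 CPM in the WT libraries and 113, 131 and 106 CPM in the KO libraries, against 54.8, 64.8 and 46.00 CPM in the WT libraries, with log2 fold changes of 1.05 and 1.08. These 4 genes hold no seed match, and each was called with every library left out. The 15 largest increases at 5 CPM or more among the genes reported here include 5 seed-matched genes (Myo10, Bach1, Gsr, Fam46c and Cebpb), and the rest are Wdfy1, Ptgir, Ccl22, Fmnl2, Lad1, Tmem176b, Tmem176a, H1f0 (linker histone, 1.01), Alpk2 (1.0) and Tubb6 (0.97).

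The largest decreases at 5 CPM or more were led by Pydc3 and Mid1. Mid1, a microtubule-associated ubiquitin ligase on the X chromosome, had 6.67, 4.95 and 6.73 CPM in the KO libraries, against 48.9, 34.7 and 35.1 CPM in the WT libraries (log2 fold change -2.69, SE 0.17, adjusted p = 5.1e-06), with KO libraries far below WT libraries. The others fell by 0.64 to 0.93 on the log2 scale. Akap12, a scaffold of protein kinase A, had 14.7, 12.2 and 13.7 CPM in the KO libraries, against 22.7, 25.05 and 20.1 CPM in the WT libraries (log2 fold change -0.74, SE 0.11, adjusted p = 0.0012). Ssbp2 had 6.33, 4.85 and 5.61 CPM in the KO libraries, against 10.2, 11.1 and 8.73 CPM in the WT libraries and carries a 7mer-m8, as does Slc4a8. Slc4a8, Hemgn, Tespa1, Dpysl2, Taf9b, Pglyrp2 and BC094916 fell by 0.85, 0.73, 0.67, 0.66, 0.64, 0.64 and 0.66. These 7 lost their call without at least 1 library, with adjusted p up to 0.065, 0.053, 0.056, 0.054, 0.1, 0.11 and 0.16.

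**Figure D5:**
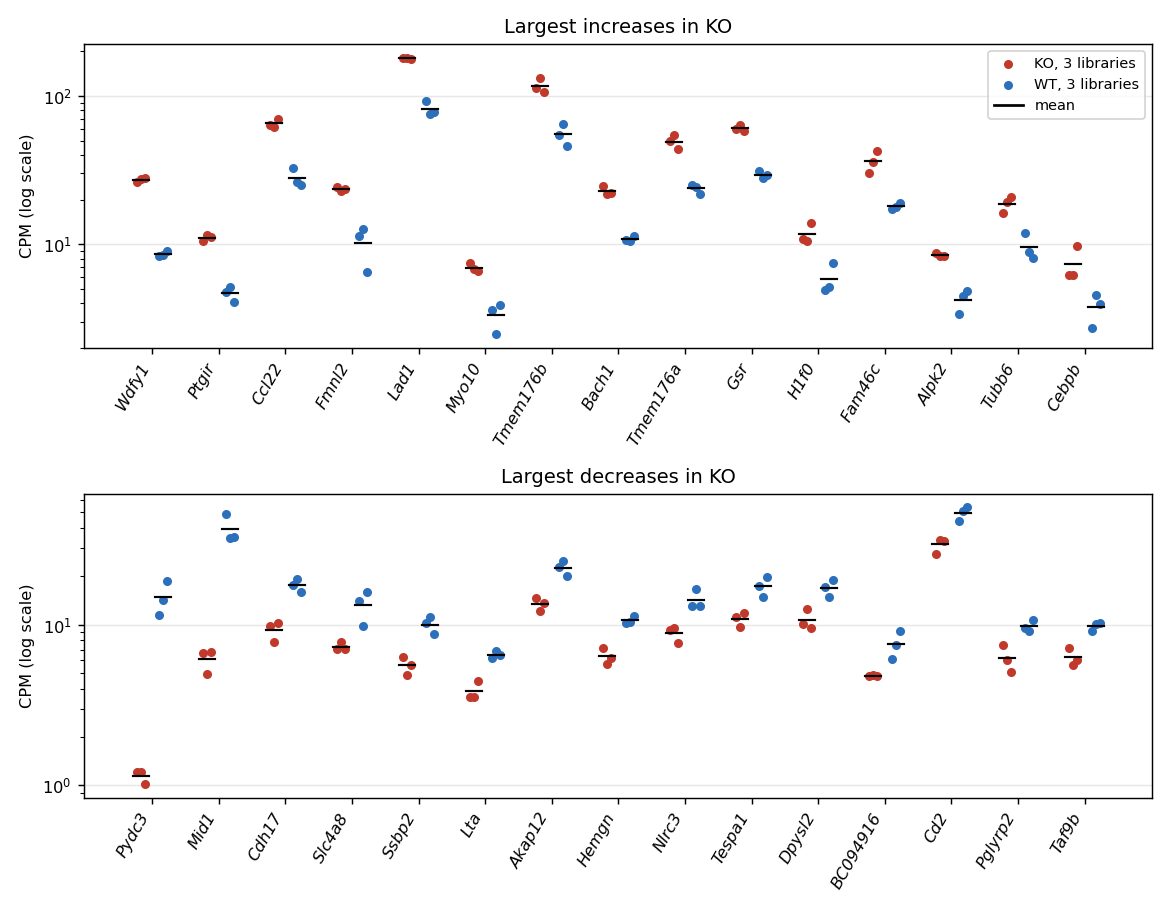
CPM on a log scale in each library for the 15 largest increases (top) and the 15 largest decreases (bottom) among called genes reported here with a mean of at least 5 CPM and no overlap between groups. Red points (left of each pair) are KO libraries, blue points (right) WT libraries, and black lines the means. Wdfy1 leads the increases and Pydc3 the decreases, with all 3 KO libraries at 1.02 to 1.21 CPM for Pydc3.

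The 10 most abundant called genes had log2 fold changes of 0.19 to 0.51 in size. Ftl1, Fth1 and Mcm2, given above, rose by 0.51, 0.40 and 0.37 and were called with each library left out. Serinc3, an antiviral membrane protein with a 7mer-A1, had 1352, 1366 and 1431 CPM in the KO libraries, against 1165, 1143 and 1255 CPM in the WT libraries (log2 fold change 0.22, SE 0.05, adjusted p = 0.024). Rpn1, a subunit of the glycosylation complex, rose by 0.22, while Flna, Helz2 and Polr2a fell by 0.25, 0.27 and 0.19. Each of these lost its call in 3 to 5 of the fits without 1 library, with adjusted p up to 0.15, 0.21, 0.17, 0.14 and 0.21.

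Of the genes annotated within 1 megabase of Mir155 on chromosome 16, only Mrpl39 was called. Mrpl39, a mitochondrial ribosomal protein gene whose nearest base lies 3411 bases from the mature microRNA (GENCODE M21, GRCm38), had 61.6, 60.1 and 70.8 CPM in the KO libraries, against 82.96, 84.2 and 85.3 CPM in the WT libraries (log2 fold change -0.39, SE 0.07, adjusted p = 0.0048) and fell. Gabpa, App and Atp5j gave -0.20, -0.42 and 0.01 and were not called, Mrpl39 lost its call in the fit of all 24 libraries (adjusted p = 0.070), and Jam2 and Cyyr1 had 0 counts in each library. Loss of the microRNA and an effect of the deletion on a neighbouring gene cannot be told apart for Mrpl39.

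The KO effect in B cells was set against the mean KO effect of the other 3 cell types for the 10 largest increases and decreases reported here, in a fit of all 24 libraries in which 25 of 12249 genes (0.204%) differed. Of these 20 genes, which were picked for the size of their change in B cells, 5 differed. The stimulus also differed between cell types, so cell type and stimulus cannot be told apart in these differences. Ccl22 rose by 1.22 in B cells, while its log2 fold change was -0.77 in dendritic cells, -2.89 in macrophages and 0.90 in T cells, a difference from their mean of 2.14 (SE 0.26, adjusted p = 0.00059). Tmem176b differed by 1.46 (SE 0.29, adjusted p = 0.044), with log2 fold changes of 1.08 in B cells, 1.31 in T cells, -2.81 in macrophages and 0.34 in dendritic cells. Ptgir differed by 1.67 (SE 0.32, adjusted p = 0.034), with 1.24 in B cells, 0.25 in T cells, -0.24 in macrophages and -1.29 in dendritic cells. Akap12 differed by -1.56 (SE 0.30, adjusted p = 0.034), with -0.74 in B cells, -0.39 in T cells, 1.63 in macrophages and 1.204 in dendritic cells. Its fall in B cells was not called in this fit (adjusted p = 0.17). For Bach1 the KO effect in log2 was 1.07 for B cells and 1.03, 0.76 and 0.60 for dendritic cells, macrophages and T cells, and the difference did not pass (0.28, SE 0.15, adjusted p = 0.50). Gsr rose by 1.04 in B cells and gave 0.83, 0.33 and 0.28 in dendritic cells, macrophages and T cells, a difference from their mean of 0.56 (SE 0.09, adjusted p = 0.012).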

How the data were processed

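Messenger RNA of 24 libraries was sequenced, and the 6 B cell libraries are described here, with the other 18 used for the comparison between cell types and the fit of all 24. The deposited files hold raw read counts, 1 for each gene symbol, and were not normalized by the authors (the file names refer to coding sequence, and the values are whole numbers). Per the submitters' processing notes, the tools were cutadapt and STAR and the build mm9, without versions. The counting tool and the strand setting are not given, so reads of overlapping genes cannot be told apart. Lines naming no gene (51.9 to 53.5% of B cell counts fell outside features) did not enter the library sizes or the tests. Replicates differed by more than counting noise (chi-square per gene 2.34 to 6.62), so none was taken for a copy.

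Groups came from the sample titles. Counts were fitted with edgeR 4.0.16 in R 4.3.3 (TMM, filterByExpr with a minimum count of 10, robust quasi-likelihood F test, two-sided), and genes with a Benjamini-Hochberg adjusted p under 0.05 over all tested genes were called. Each log2 fold change is KO minus WT, and its standard error (SE) is the absolute log2 fold change over the square root of F. Alternatives were other normalizations and filters, DESeq2 1.42.0, a replicate block, a fit of all libraries, each library left out, and length-matched or 8mer genes. The fit was also tested on simulated counts of this comparison. It recovered 44 of 50 genes changed 1.5-fold, and 50 of 50 at each of 2-fold, 3-fold and 4-fold. There were 21 false calls in a fit of 10101 genes, a number to be set against the recovered genes. Recovery was not split by expression level, so it is not known for genes of low count.

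Sites were sought in the longest GENCODE M21 3′ UTR (GRCm38) of each symbol. Of the symbols 19967 matched directly, 566 through an older name and 140 not, and 19999 had a 3′ UTR. Coordinates are never mixed with the mm9 build of the files. Length-matched genes were picked as the nearest in 3′ UTR length without reuse. Named genes were the 15 largest changes in each direction (mean of at least 5 CPM, no overlap), 20 called seed-matched genes (smallest p), up to 8 called members of each list and the uncalled reported targets, the 10 most abundant called genes, the neighbours of Mir155 and 2 marker genes, with predicted genes passed over. Some genes are not reported here and stand in no list or figure of named genes. The members, lists and rules were chosen with earlier results of these data known. After the files had been seen, 3 listed symbols were replaced by the files' names for the same genes and symbols absent from the files were dropped. Predicted genes stay in all counts.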

Additional observations from a re-analysis of the deposited data

Results flagged for a closer look

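The KO effect in B cells was tested against the mean KO effect of the other 3 cell types for 20 genes, picked for having the largest changes in B cells. It differed in 5 of them (edgeR, adjusted p under 0.05, 3 libraries a group), beside 25 of all 12249 genes of that fit (0.204%). Cell type and stimulus cannot be told apart here, because the stimulus was not the same in all cell types. The difference on the log2 scale was 2.14 for Ccl22, 1.67 for Ptgir, 1.46 for Tmem176b, 0.56 for Gsr and -1.56 for Akap12. Ccl22 rose in B cells and fell in KO dendritic cells and macrophages, where its log2 fold changes were -0.77 and -2.89. Tmem176b had 1.08 in B cells, 1.31 in T cells, 0.34 in dendritic cells and -2.81 in macrophages. The macrophage value was called and the T cell and dendritic cell values were not. Akap12 had -0.74 in B cells, which was called in the B cell fit but not in the fit of all 24 libraries (adjusted p = 0.17), and rose in KO macrophages (1.63). Ptgir rose in B cells and was not called in the other cell types. Gsr rose in B cells, dendritic cells (0.83) and macrophages (0.33), and was not called in T cells (0.28).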

How the results depend on the processing

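Another normalization, DESeq2 size factors, moved no count by more than 1.5 times, and the DESeq2 test called 266 genes, 242 of them shared with the 325. With no filter on low counts 501 genes were called, 193 of them down. The fit of all 24 libraries called 81 (67 up, 14 down), with 44 seed-matched genes up, 3 down and 28 list members called. With 8mer genes alone, 50 seed-matched genes rose. Leaving out 1 library gave 141 to 441 calls (100 to 274 up, 39 to 167 down), 53 to 133 seed-matched genes up, 4 to 12 down, 49 to 103 called list members, against 81 with every library (49 without WT replicate 1, 50 without KO replicate 2, 53 without WT replicate 2), and a median excess of seed-matched genes of 0.026 to 0.083. Of 112 called named genes, 60 were called with each library left out, and 39 in every setting. The replicate block called 1260 genes (653 up, 607 down), with 217 seed-matched genes up, 59 down and 217 list members. It also called the Mir155 neighbours App (adjusted p = 0.010) and Gabpa (adjusted p = 0.0082). Same-numbered KO and WT libraries correlated at 0.18, 0.03 and 0.21 in their deviations from the group means, and differently numbered ones at -0.20 to 0.05. The best match was with the own number for KO replicates 1 and 3 but not 2 (0.03, against 0.05 with WT replicate 1). The labels do not say whether equal numbers pair the samples. The main fit took no pairing, so any effect shared by equal numbers was not removed and counts in its spread between libraries. Genes that were not called and changed sign with a library left out had log2 fold changes of -0.083 to 0.064 for Cd79a, -0.12 to 0.021 for Myd88, -0.052 to 0.020 for Ripk1, -0.17 to 0.070 for Socs1, -0.031 to 0.036 for Msh6, -0.038 to 0.037 for Atp5j, -0.021 to 0.044 for Cd47, -0.036 to 0.029 for Rhoa, -0.20 to 0.051 for Rictor, -0.018 to 0.18 for Fadd and -0.15 to 0.023 for Foxo3. The cause of these changes was not tested. With 3 libraries a group, changes of 1.5-fold or less can be missed, and genes under about 10 counts a library were not tested. For tested genes of low count, larger changes may be missed too.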
